A study of Rattus norvegicus with 48 samples.

Results

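The cytoprotective program that the transcription factor NRF2 controls was followed in rat lung after inhalation of oil vapor. Its 9 members were Nfe2l2, which encodes NRF2, and 8 of its known targets: Nqo1, Hmox1, Gclc, Gclm, Txnrd1, Srxn1, Slc7a11 and Fth1. They were chosen by gene symbol from 30045 genes, all 9 were present in the count tables of both exposure schedules, and all 9 passed the filter on low counts. Levels are given as reads of a gene per 1 M reads assigned to genes (CPM), and compare libraries for 1 gene, not genes with each other, since gene lengths were not used.

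NRF2 is held at a low level in unstressed cells by KEAP1, a sensor protein with reactive cysteines that directs it to degradation. Electrophiles and oxidants modify KEAP1, NRF2 then enters the nucleus, pairs with a small MAF protein and binds antioxidant response elements near its target genes. In the lung, inhaled irritants and oxidants are known triggers of this response, and Nqo1, Hmox1, Gclm and Srxn1 are common readouts of it. The transcript of Nfe2l2 itself need not change, since NRF2 is regulated mainly through its protein.

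The 48 libraries came from lung of 48 male Sprague-Dawley rats of about 200 to 250 g, 1 library per animal, in 8 groups of 6. A whole-body chamber delivered oil vapor at 300 ppm or filtered air for 6 h a day. The single schedule was 1 day, and the repeated schedule was 4 days a week for 4 weeks, or 16 exposure days. Each schedule had its own air group, and lung was taken 1 or 28 days after exposure ended, so the later animals were killed at a greater age or exposed earlier. The controls breathed air only, and the labels gave no other treatment and no genetic change. Whether animals of a group were exposed together was not given in the sources used here.

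Library totals ran from 1.54 M to 7.16 M counts with a median of 5.24 M. The library of animal 43 (repeated, oil vapor, day 1) was the lowest, and the next lowest held 3.603 M. A count of 3 corresponded to 0.419 to 1.95 CPM. As markers of lung, the alveolar type 2 genes Sftpc, Sftpb and Sftpa1 and the type 1 gene Ager were above 0 in every library. Of the alveolar macrophage markers, Marco was at 0 in 37 of 48 libraries and the other 9 at 0 in none. In bulk tissue, fewer cells of a type and less RNA per cell cannot be told apart. The 2 schedules may not be independent sets of libraries. When animals were ranked by number within matching groups, the raw counts of Alas2, the first enzyme of heme synthesis in red cell precursors, differed between the partners by a median of 1.08-fold and at most 1.39-fold over 24 pairs, while library totals differed by up to 3.09-fold. What this reflects was not tested, and values of Gclm and Fth1 that agree across the schedules are not independent support of each other.

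Gclm had the largest spread within groups of the 9 members with animals 5 and 43 included (SD of log2 CPM 0.653), though not without them (0.3399, against 0.482 for Srxn1). Because several results turn on it, the 250 bases upstream of the Gclm start site are shown, with the match to the antioxidant response element core in capitals. The sequence is from RefSeq on GRCr8, a newer build than the Rnor_6.0 of the counts, plus strand, chr2:213031885-213032134, 5′ to 3′.
Gclm upstream: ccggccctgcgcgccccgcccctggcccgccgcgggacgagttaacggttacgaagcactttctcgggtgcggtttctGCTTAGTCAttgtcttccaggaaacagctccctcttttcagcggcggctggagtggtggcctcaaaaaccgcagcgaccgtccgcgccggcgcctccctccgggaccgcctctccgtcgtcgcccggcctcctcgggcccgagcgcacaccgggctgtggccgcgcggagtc

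The element searched was TGACNNNGC on both strands, in 250 bases before and 50 bases after each start site. Of 9 members, 7 had a promoter in the RefSeq table (Txnrd1 had 2), and Hmox1 and Fth1 had none. Of their promoters, 3 held a match, and 12.1% of all 33469 promoters did so. In Gclm it began 172 bases before the start site, in 1 of the Txnrd1 promoters 78 bases before, and in Nfe2l2 38 bases after. The first 2 matches lie on the strand opposite to the gene and so read in reverse complement. They are shown with up to 5 flanking bases.
Gclm: tttctGCTTAGTCAttgtc
Txnrd1: tttttGCTTTGTCAttctg
Nfe2l2: gccatTGACGCCGCctc
The longer form TGACTCAGC was in 0.415% of all promoters and in 0 of the members' promoters. A match is a run of letters and not a measured binding site, and elements farther away were not searched. Variants of these letters were not searched either, and TGAGTCAGC, which differs from the longer form by 1 letter, spans the Srxn1 start site.

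The first question was whether oil vapor changed the NRF2 targets relative to air. None of the 9 members passed an adjusted p of 0.05 in any of the 4 comparisons of oil vapor with air (edgeR quasi-likelihood test, two-sided, Benjamini-Hochberg over all genes tested). On day 1 after a single exposure 7 of 9 members were higher in oil vapor, with a median log2 fold change of 0.09 against 0.0097 over all genes tested. On day 28 after it, 3 of 9 were higher (median -0.037 against 0.0068). On day 1 after repeated exposure 4 of 9 were higher (median -0.047 against 0.018), and on day 28 after it 5 of 9 were higher (median 0.00026 against 0.0076). Whether these numbers of higher members depart from those of all genes was not tested.

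The counts of members past the threshold stand beside a background with almost no calls. Oil vapor changed 0 of 14820 genes after a single exposure on day 1 (0%, with 1494 genes at an unadjusted p below 0.05) and 0 on day 28 (0%, 1217 genes). After repeated exposure it changed 1 of 15005 genes on day 1 (0.00666%, 1394 genes at an unadjusted p below 0.05), which was Mal2 at -0.35 log2, and 0 on day 28 (0%, 729 genes). DESeq2 called 17, 24, 90 and 21 genes in the same comparisons, in that order, and 0 members in each. The count of 0 members was also found in each fit that left out 1 animal. A count of 0 of 9 is thus what the background gives.

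**Figure D1:**
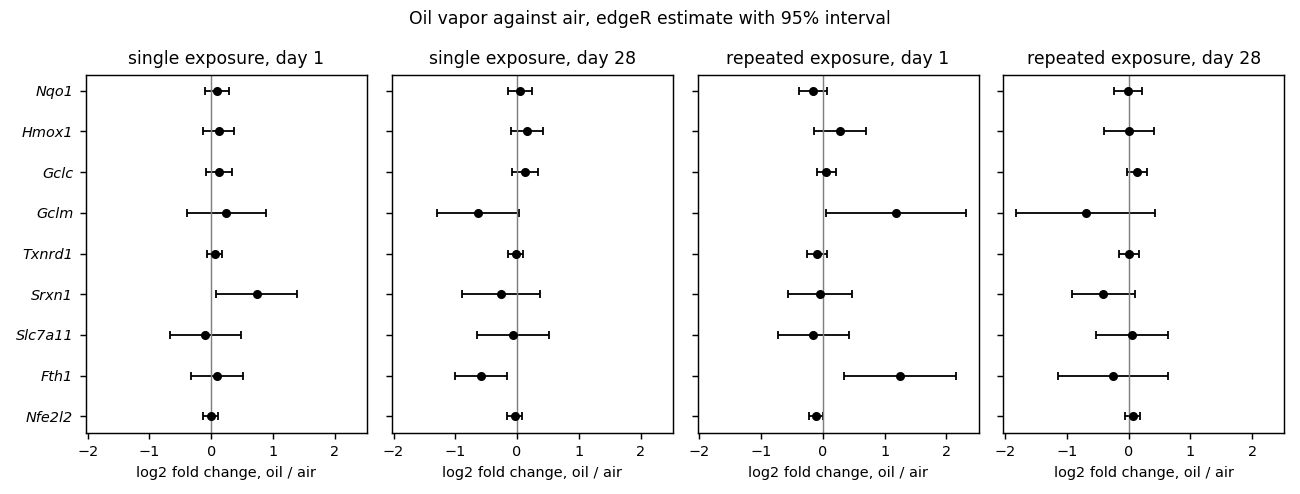
Log2 fold change of each member in oil vapor against air (points, edgeR estimate) with its 95% interval (bars), 1 panel per schedule and day with 6 animals per group. Intervals of Nqo1, Gclc, Txnrd1 and Nfe2l2 are narrow around 0, while those of Gclm, Fth1, Srxn1 and Slc7a11 are wide.

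Nfe2l2 had one of the steadiest levels of the 9 members. The median Nfe2l2 level, with the lowest and highest animal, was 141 CPM (129 to 151) in air and 139 CPM (127 to 155) in oil vapor 1 day after the single exposure, and 144 CPM (124 to 157) and 143 CPM (131 to 158) 28 days after it. The repeated schedule gave 151 CPM (135 to 163) in air and 137 CPM (109 to 146) in oil vapor on day 1, and 140.2 CPM (131 to 149) and 147 CPM (142 to 155) on day 28. Every oil vapor group overlapped its air group. The log2 fold changes in the order above were -0.01 (SE 0.06), -0.04 (SE 0.06), -0.11 (SE 0.06) and 0.06 (SE 0.06), with adjusted p of 0.543 to 0.9799. The 95% intervals of the 4 effects lay between 0.853-fold and 1.13-fold. Its lowest library was animal 43, at 109 CPM. The highest group mean (150.3 ± 10.001 CPM, SD, n = 6) was that of air on day 1 of the repeated schedule, and the lowest (131 ± 14.2 CPM) that of oil vapor on the same day.

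Among the genes of glutathione synthesis, Gclc encodes the catalytic subunit of glutamate-cysteine ligase, the rate-limiting enzyme. In the single schedule, Gclc had medians of 36.8 CPM (34.5 to 47.5) in air and 41.1 CPM (38.4 to 47.1) in oil vapor on day 1, and of 41.98 CPM (34.4 to 46.97) and 45.4 CPM (37.3 to 54.1) on day 28. Gclc medians in the repeated schedule were 41.6 CPM (37.1 to 52.5) in air against 42.7 CPM (33.8 to 49.5) in oil vapor on day 1, and 39.1 CPM (35.8 to 46.2) against 44.9 CPM (38.2 to 46.9) on day 28. Gclc means were higher in oil vapor in 3 of the 4 pairs of groups, with all groups overlapping. Its log2 fold changes were 0.12 (SE 0.10), 0.12 (SE 0.10), 0.06 (SE 0.08) and 0.14 (SE 0.08), all 4 above 0, with adjusted p of 0.7703 to 0.9799. Gclc intervals lay between 0.933-fold and 1.26-fold.

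Slc7a11 encodes the cystine transporter that feeds glutathione synthesis, and its counts were low, at 5 to 32 per library. Slc7a11 medians 1 day after the single exposure were 3.53 CPM (2.16 to 4.03) in air and 2.76 CPM (2.24 to 5.48) in oil vapor, followed by 3.13 CPM (1.33 to 4.85) and 3.08 CPM (1.895 to 4.81) at 28 days. With repeated exposure, Slc7a11 had 4.29 CPM (2.185 to 6.85) in air and 4.13 CPM (1.53 to 6.51) in oil vapor at 1 day, then 3.23 CPM (2.47 to 4.42) and 3.29 CPM (2.79 to 4.301) at 28 days. The groups overlapped throughout, and the log2 fold changes were -0.10 (SE 0.28), -0.06 (SE 0.28), -0.16 (SE 0.28) and 0.05 (SE 0.28), with adjusted p of 0.909 to 0.9998. The intervals reached from 0.603-fold to 1.55-fold.

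Gclm, which encodes the modifier subunit of the same ligase, varied far more within groups than Gclc. The median Gclm level, with the lowest and highest animal, was 39.9 CPM (28.3 to 60.7) in air and 34.9 CPM (24.1 to 129) in oil vapor 1 day after the single exposure, and 40.6 CPM (34.8 to 69.1) and 30.1 CPM (20.5 to 41.8) 28 days after it. The repeated schedule gave 37.7 CPM (31.5 to 60.1) in air and 37.4 CPM (29.8 to 354) in oil vapor on day 1, and 41.3 CPM (29.8 to 61.7) and 27.2 CPM (25.5 to 37.2) on day 28. The medians were lower in oil vapor in all 4 pairs, although on day 1 the means were higher because 1 animal per schedule stood far above the others. Animal 5 (single) had 129 CPM, where the other 5 had 24.1 to 37.2 CPM, and animal 43 (repeated) had 354 CPM, where the other 5 had 29.8 to 38.5 CPM. The log2 fold changes of Gclm were 0.25 (SE 0.31), -0.64 (SE 0.32), 1.18 (SE 0.55) and -0.70 (SE 0.54), with adjusted p of 0.512 to 0.9799. Without animal 5 the value on day 1 of the single schedule was -0.35, and without animal 43 that on day 1 of the repeated schedule was -0.31. Fitted on the 12 libraries of the comparison alone, Gclm was lower in oil vapor on day 28 of the repeated schedule (-0.71, adjusted p = 0.0451, edgeR), where that fit called 137 genes in all. The fit on 24 libraries called 0 genes there.

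Of the thioredoxin arm, Txnrd1 encodes thioredoxin reductase, which keeps thioredoxin reduced with NADPH. In the single schedule, Txnrd1 had medians of 91.9 CPM (88.04 to 108) in air and 99.1 CPM (84.3 to 104) in oil vapor on day 1, and of 94.7 CPM (87.7 to 111) and 98.2 CPM (86.01 to 107) on day 28. Txnrd1 medians in the repeated schedule were 90.6 CPM (85.7 to 109.7) in air against 82.998 CPM (68.2 to 97.6) in oil vapor on day 1, and 89.2 CPM (82.4 to 95.03) against 89.9 CPM (82.2 to 96.5) on day 28. The groups overlapped in each pair, with Txnrd1 log2 fold changes of 0.06 (SE 0.06), -0.02 (SE 0.06), -0.09 (SE 0.08) and 0.01 (SE 0.08). Its adjusted p were 0.728 to 0.9998, and its intervals lay between 0.838-fold and 1.13-fold.

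Srxn1 encodes sulfiredoxin, which restores overoxidised peroxiredoxins. Srxn1 medians 1 day after the single exposure were 2.13 CPM (1.52 to 4.86) in air and 4.24 CPM (2.49 to 6.96) in oil vapor, followed by 4.78 CPM (3.06 to 6.63) and 3.94 CPM (2.47 to 5.52) at 28 days. With repeated exposure, Srxn1 had 4.19 CPM (3.46 to 8.07) in air and 4.64 CPM (2.94 to 7.16) in oil vapor at 1 day, then 5.28 CPM (4.06 to 7.69) and 3.95 CPM (3.16 to 5.97) at 28 days. The air group on day 1 of the single schedule was the lowest of the 8, at 2.72 ± 1.41 CPM (SD, n = 6), and its oil vapor group stood at 4.47 ± 1.77 CPM. That difference was 1.66-fold (95% interval 1.05 to 2.63), a log2 fold change of 0.74 (SE 0.32). It had an unadjusted p of 0.0303 and an adjusted p of 0.459 (edgeR), and the groups overlapped. In the other comparisons Srxn1 was at -0.27 (SE 0.31), -0.05 (SE 0.25) and -0.42 (SE 0.25). Against the same low air group, air animals of day 28 had a value of 0.83 (SE 0.32) with adjusted p = 0.193, and air animals of day 1 of the repeated schedule had 0.79 (SE 0.30) with adjusted p = 0.141. These comparisons share that group of 6 animals, in which Srxn1 had 8 to 22 counts per library.

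Nqo1 encodes a quinone reductase that is a classic target of NRF2. The median Nqo1 level, with the lowest and highest animal, was 34.6 CPM (29.4 to 38.7) in air and 37.5 CPM (29.3 to 39.01) in oil vapor 1 day after the single exposure, and 33.8 CPM (28.7 to 36.4) and 33.6 CPM (27.02 to 44.8) 28 days after it. The repeated schedule gave 34.6 CPM (32.6 to 37.7) in air and 30.1 CPM (16.9 to 38.4) in oil vapor on day 1, and 33.7 CPM (26.8 to 37.8) and 32.2 CPM (29.8 to 39.7) on day 28. Each oil vapor group overlapped its air group. The log2 fold changes of Nqo1 were 0.09 (SE 0.09), 0.06 (SE 0.09), -0.16 (SE 0.11) and -0.02 (SE 0.11), with adjusted p of 0.6699 to 0.9998 and intervals between 0.762-fold and 1.22-fold. The lowest library was again animal 43, with 26 counts or 16.9 CPM.

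Hmox1 encodes heme oxygenase 1, which degrades heme to biliverdin, carbon monoxide and iron. In the single schedule, Hmox1 had medians of 21.2 CPM (16.1 to 24.5) in air and 24.5 CPM (14.8 to 25.3) in oil vapor on day 1, and of 20.3 CPM (16.96 to 25.4) and 23.2 CPM (18.5 to 27.02) on day 28. Hmox1 medians in the repeated schedule were 20.5 CPM (15.97 to 28.98) in air against 23.9 CPM (5.85 to 40.9) in oil vapor on day 1, and 24.4 CPM (21.9 to 33.1) against 24.5 CPM (20.3 to 33.8) on day 28. Hmox1 medians were higher in oil vapor by small amounts in all 4 pairs, and the groups overlapped in each. The log2 fold changes were 0.12 (SE 0.12), 0.16 (SE 0.12), 0.28 (SE 0.20) and 0.00 (SE 0.20), with adjusted p of 0.676 to 0.9998. On day 1 of the repeated schedule the oil vapor group spread from 9 counts (5.85 CPM, animal 43) to 254 counts (40.9 CPM, animal 47).

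Fth1 encodes the heavy chain of ferritin, which stores the iron that heme degradation frees. Reads of Fth1 could be shared with near-identical copies, and how the counting treated them was not given in the sources used here. Fth1 medians 1 day after the single exposure were 912 CPM (796 to 1177) in air and 785 CPM (721 to 1980.3) in oil vapor, followed by 1092 CPM (939 to 1695) and 797 CPM (668 to 924) at 28 days. With repeated exposure, Fth1 had 791 CPM (686 to 1142) in air and 930.2 CPM (766 to 5591) in oil vapor at 1 day, then 1109 CPM (919 to 1649) and 964 CPM (819 to 1148) at 28 days. On day 28 of the single schedule all 6 oil vapor animals (668 to 924 CPM) lay below all 6 air animals (939 to 1695 CPM). Of 15554 genes with a mean of at least 1 CPM, 0.881% did not overlap in that comparison. Fth1 was 0.666-fold the air level (95% interval 0.497 to 0.893), a log2 fold change of -0.59 (SE 0.21), with an unadjusted p of 0.00843 and an adjusted p of 0.468 (edgeR). On day 28 of the repeated schedule the groups overlapped, with a value of -0.26 (SE 0.43). On day 1 the values were 0.09 (SE 0.20) after the single exposure and 1.24 (SE 0.44) after repeated exposure, and -0.28 and 0.02 without animals 5 and 43. Animal 43 had 5591 CPM of Fth1, where the other 5 had at most 985 CPM.

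**Figure D2:**
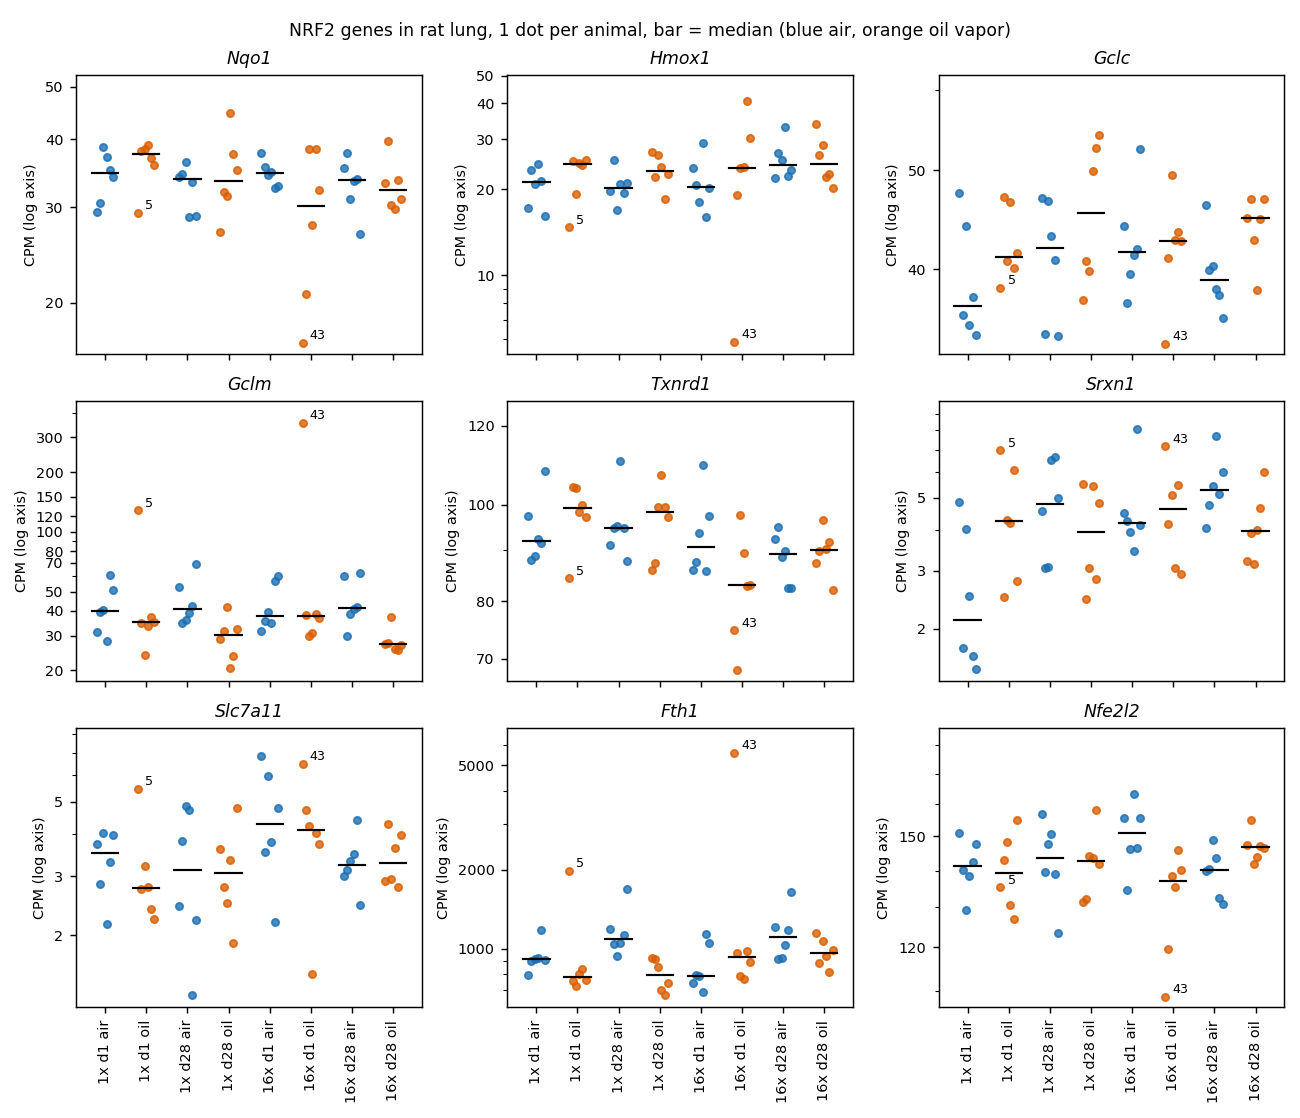
CPM of each member (log axis) in 48 animals, 1 dot per animal and a bar at the group median, for the single (1x) and repeated (16x) schedules on days 1 and 28 (d1, d28) in air (blue) and oil vapor (orange). Animals 5 and 43 are numbered; they are the highest dots of Gclm, at 129 and 354 CPM, and of Fth1, at 1980 and 5591 CPM.

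With the groups ordered by mean, all 7 pairs of neighbours overlapped for each of the 9 members. Of the 28 pairs of groups, 1 did not overlap for Fth1 (oil vapor and air on day 28 of the single schedule) and 0 did not for each of the other 8 members. Between oil vapor and air, near-complete overlap was also the background, since 0.579% to 0.894% of 15554 genes did not overlap in the 4 comparisons. That share was not computed for the other pairs of groups. The highest group mean was 1.14-fold the lowest for Nfe2l2, 1.17-fold for Gclc, 1.18-fold for Txnrd1, 1.25-fold for Nqo1 and 1.25-fold for Hmox1. It was 1.44-fold for Slc7a11, 2.03-fold for Srxn1, 2.08-fold for Fth1 and 3.101-fold for Gclm. In a test for any difference among the 8 groups, 2090 of 15322 genes passed (13.6%) and 0 of 9 members did, with Fth1 (adjusted p = 0.0549) and Gclm (adjusted p = 0.111) the nearest (edgeR quasi-likelihood F test). Without animals 5 and 43, a choice made after seeing the data, Gclm (adjusted p = 0.0104) and Fth1 (adjusted p = 0.00122) passed that test. In that fit 3201 genes passed in all, against 2090 with all libraries. The share over all genes was not computed for it, so 2 of 9 members is not read as more than the background. The test does not name the groups that differ.

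Gclm and Fth1 moved with transcripts of blood-forming cells from animal to animal. The marker level was the mean log2 level of those of 10 erythroid and marrow markers that passed the filter on low counts. Mpo, at 0 in 34 of 48 libraries, did not pass it. Within groups, log2 Gclm correlated with this level at r = 0.9603 (rho = 0.924, permutation adjusted p = 2.4e-04) over the 24 animals of the single schedule and at r = 0.933 (rho = 0.855, permutation adjusted p = 2.4e-04) over the 24 of the repeated one. Fth1 gave r = 0.893 (rho = 0.803, permutation adjusted p = 2.4e-04) and r = 0.925 (rho = 0.7704, permutation adjusted p = 4.1e-04). Without the 2 libraries farthest from the median of the marker level, r was 0.932 and 0.833 for Gclm and 0.778 and 0.806 for Fth1. The p-values are adjusted over a family of 144, values were centred within groups, and labels were permuted within groups. No other member passed with this list, and Gclc, the partner of Gclm in the ligase, had r = -0.365 (permutation adjusted p = 0.321) and r = 0.289 (permutation adjusted p = 0.571). Within the 8 single groups of 6 animals, r ran from 0.7605 to 0.986 for Gclm, with 8 of 8 groups past an exact permutation p adjusted over 16, and from 0.551 to 0.984 for Fth1, with 6 of 8. These relations were chosen for testing with earlier results known. The share of all genes that correlate with this marker level was not computed, so these counts have no background beside them.

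**Figure D3:**
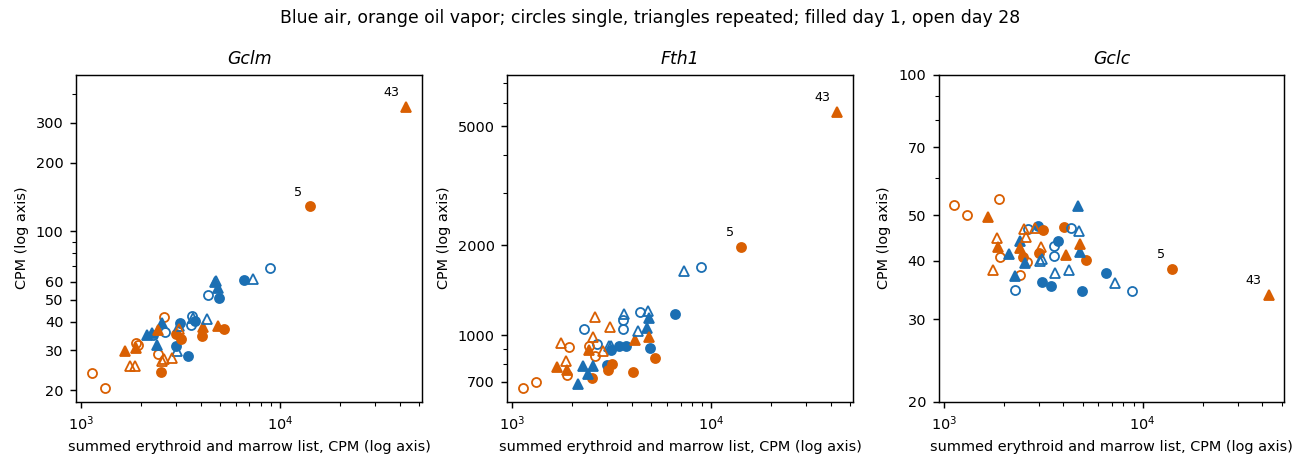
CPM of Gclm, Fth1 and Gclc against the summed CPM of 10 erythroid and marrow markers, log axes, 1 symbol per animal. Gclm and Fth1 climb with the sum up to animals 5 and 43, at sums of 14058 and 43018 CPM, whereas Gclc stays between 33.8 and 54.1 CPM.

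The marker list also had fitted values away from 0 between oil vapor and air, none of which passed the test. Its sum spanned 2979 to 6569.7 CPM in air and 2512 to 14058 CPM in oil vapor on day 1 of the single schedule, and 2286 to 8895 CPM and 1133 to 2610.2 CPM on day 28. In the repeated schedule it spanned 2141 to 4850.0 CPM and 1669.8 to 43018 CPM on day 1, and 3041 to 7265 CPM and 1761 to 3092 CPM on day 28. Of 10 markers 9 could be tested, and Mpo was at 0 in 34 of 48 libraries. All 9 were higher in oil vapor on day 1 (median log2 fold change 0.47 single, 2.01 repeated) and lower on day 28 (-2.08 and -1.92), and 0 of 9 passed the test in each. Animals 5 and 43 held the highest sums on day 1, and the median sums there were 3592 CPM in air and 3600.4 CPM in oil vapor (single) and 2482 and 3269 CPM (repeated). The day 1 folds without those 2 animals were not computed. Gclm and Fth1 had those signs in all 4 comparisons, on day 1 only with animals 5 and 43 included for Gclm and with animal 5 included for Fth1.

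With scores for erythroid, liver and heart transcripts as covariates, the day 28 values turned positive: Gclm was 0.44 (single) and 0.60 (repeated), and Fth1 0.13 and 0.77. On day 1 that fit gave Gclm 0.03 and -0.02, and Fth1 -0.07 and 0.37. None of these 8 values passed the test. In the same fit Gclm (adjusted p = 0.01199) and Fth1 (adjusted p = 4.3e-04) passed the test for any difference among the 8 groups (edgeR). So did 2769 of 15322 genes, and the 2 members are not read as more than that background. How much of the Gclm and Fth1 signal came from such cells was not tested. Liver transcripts summed to 37.8 to 1017 CPM and heart transcripts to 18.7 to 1169.6 CPM over the libraries. The 6 or 7 liver markers tested had a median log2 fold change in oil vapor of 2.66 and -3.53 on days 1 and 28 of the single schedule and 3.12 and -3.43 of the repeated one, and the 7 heart markers -1.27, -1.34, 0.34 and -1.99. None of these markers passed the test. Median liver sums on day 1 were 53.2 CPM in air and 172.7 CPM in oil vapor (single) and 63.6 and 229.5 CPM (repeated). On day 28 they were 86.1 and 56.2 CPM, and 88.1 and 57.8 CPM. The highest air libraries of day 28 had 803 CPM (animal 17, single) and 953 CPM (animal 82, repeated). Folds without those animals were not computed. No member passed a correlation with the liver, heart or alveolar macrophage lists, the other 3 tested.

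**Figure D4:**
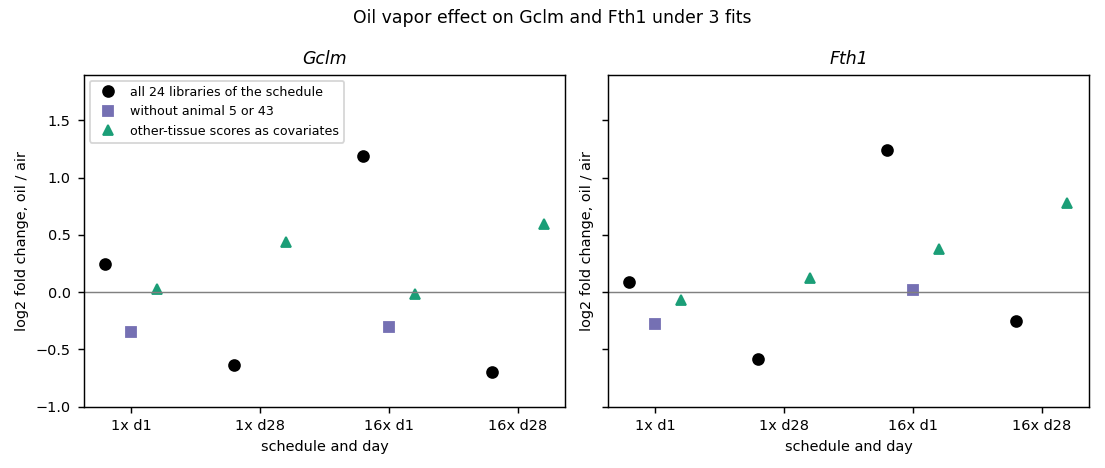
Log2 fold change of Gclm and Fth1 in oil vapor against air for each schedule (1x, 16x) and day under 3 fits: all 24 libraries of the schedule (circles), without animal 5 or 43 on day 1 (squares), and with other-tissue scores as covariates (triangles). The day 1 values of both genes fall to 0.02 or below without those animals, and the day 28 values lie above 0 with the scores.

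The like counts of the 2 schedules reached these 2 members. Over 24 rank-matched pairs, group-centred log2 Gclm gave r = 0.9202 (rho = 0.863, permutation adjusted p = 5e-05) and Fth1 r = 0.917 (rho = 0.765, permutation adjusted p = 4.8e-04). Without the 2 farthest pairs r was 0.8399 and 0.741. Hmox1 gave r = 0.604 (rho = 0.442, permutation adjusted p = 0.0501) and r = 0.3502 without the 2 farthest, and the other 6 members 0.111 to 0.255. The family held 20 tests, and the pairing was chosen after the data had been seen. Animals 5 and 43 show the pattern in raw counts: Gclm had 610 and 544 counts and Fth1 9391 and 8594, while Nfe2l2 had 642 and 167 and Nqo1 139 and 26, in libraries of 4.74 M and 1.54 M counts.

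**Figure D5:**
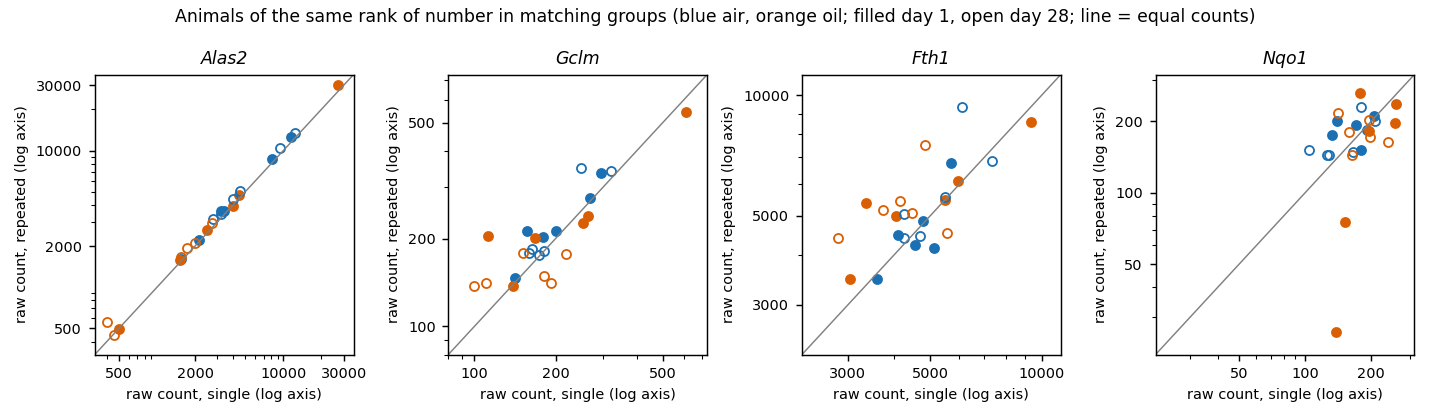
Raw counts of Alas2, Gclm, Fth1 and Nqo1 in 24 pairs of animals of the same rank of number in matching groups, single schedule on the x axis and repeated on the y axis (log axes, line at equal counts). Alas2 pairs lie along the line, at most 1.39-fold apart, and Nqo1 pairs are up to 5.35-fold apart.

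A further question was whether members changed between 1 and 28 days after exposure. None of the 9 passed in air or oil vapor of either schedule. The background was 481 of 14820 genes in air (3.25%) and 1398 in oil vapor (9.43%) of the single schedule, and 49 (0.327%) and 51 (0.34%) of 15005 genes in the repeated one. By direction, 1.01% rose and 2.24% fell in air of the single schedule, 4.45% and 4.98% in its oil vapor animals, 0.267% and 0.06% in air of the repeated schedule and 0.247% and 0.0933% in oil vapor of it. The largest values were those of Gclm and Fth1 in oil vapor of the repeated schedule, at -1.77 (SE 0.56, adjusted p = 0.135) and -1.05 (SE 0.44, adjusted p = 0.256, edgeR). Without animal 43 they were -0.28 and 0.16. In oil vapor of the single schedule Gclm was -0.74 (SE 0.32, adjusted p = 0.149) and -0.15 without animal 5. In air of the 2 schedules Gclm was 0.14 (SE 0.32) and 0.12 (SE 0.53), and Fth1 0.35 (SE 0.20) and 0.45 (SE 0.43).

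No member passed the test for a difference of the oil vapor effect between the days or the schedules. For the difference of the effects on day 28 and day 1, 0 of 14820 genes (0%, 1160 at an unadjusted p below 0.05) passed in the single schedule and 1 of 15005 (0.00666%), Ptprt, in the repeated one. Srxn1 had -1.002 (SE 0.44, unadjusted p = 0.0328, adjusted p = 0.6102, edgeR) in the single schedule. Gclm had -1.88 (SE 0.77) and Fth1 -1.50 (SE 0.62) in the repeated one (adjusted p = 0.579 for both), which were -0.40 and -0.28 without animal 43. For the difference of the effects between schedules, 7 of 15322 genes (0.0457%) passed on day 1 and 0 on day 28 (0%, 796 at an unadjusted p below 0.05), and no member was among them. On day 1, 0.0392% had a higher and 0.00653% a lower effect after repeated exposure. Fth1 had 1.15 (SE 0.50) on day 1 with adjusted p = 0.424, and 0.30 without animals 5 and 43. Between the air groups of the 2 schedules, 576 genes (3.76%) differed on day 1 and 7 (0.0457%) on day 28, and again 0 of 9 members did. The share higher in the repeated schedule was 1.15% and the share lower 2.61% on day 1, and 0% and 0.0457% on day 28. These cross-schedule values rest on libraries that may not be independent. Between the air groups, schedule and count table cannot be told apart. A shift between the tables would cancel in the oil vapor effects only.

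The other genes of the pathway were read from 6 lists with 48 symbols, of which 47 were in the tables (Pgd was not under that symbol). In each of the 4 comparisons of oil vapor with air 46 were tested in the fit on 24 libraries, and 0 rose and 0 fell. In the test for any difference among the 8 groups, which 13.6% of all genes passed, 9 of the 47 pathway genes in the tables passed, of which Txnip had the smallest adjusted p (4.7e-10, edgeR), followed by Nfe2l1, Prdx6, Mafk, Maff, Txn2, Fech, Pir and Prdx1 (adjusted p up to 0.0378). Of the regulators, 9 of 9 had a fitted value above 0 on day 1 in both schedules (median 0.09 and 0.13), where 53.3% and 54.7% of all genes tested did. In plain CPM the means after repeated exposure were lower in oil vapor for Keap1 (51.6 ± 6.87 CPM against 52.8 ± 6.45 CPM) and Nfe2l1 (338 ± 80.1 CPM against 339 ± 16.97 CPM), so that count depends on the scaling. The smallest p of the list on day 1 was that of Nfe2l1, a relative of NRF2 that controls proteasome genes, at 0.23 (SE 0.05) after the single exposure (adjusted p = 0.198, edgeR). DESeq2 called Nfe2l1 in that comparison (adjusted p = 0.0135). On day 28, Nfe2, the erythroid relative, was at -1.10 (SE 0.40) and -0.92 (SE 0.62). Keap1 had 0.08 (SE 0.06), 0.07 (SE 0.06), 0.04 (SE 0.07) and -0.03 (SE 0.07) in the 4 comparisons, chosen after its values were seen.

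Of the thioredoxin list, Prdx6, a peroxiredoxin that also acts on lung surfactant lipids, was at -0.34 (SE 0.09) on day 1 after repeated exposure (adjusted p = 0.173, edgeR), and DESeq2 called it (adjusted p = 0.0207). Oil vapor animals averaged 330.4 ± 76.1 CPM of Prdx6 and air animals 438 ± 17.4 CPM (SD, n = 6). In that oil vapor group the library of animal 43 had the lowest alveolar marker sums, at 6346 CPM for type 2 (group median 14473) and 2196 CPM for type 1 (group median 4632), and their part in the Prdx6 value was not tested. Txnip, which binds and inhibits thioredoxin, was at -0.21 (SE 0.06) on day 1 after the single exposure (adjusted p = 0.2499). Of the detoxification list, Pir was at -0.58 (SE 0.15) and -0.44 (SE 0.15) after the single exposure (adjusted p = 0.2499 and 0.468), and Abcc3 at 0.21 (SE 0.11) on day 28 after repeated exposure. Of the heme and iron list, Fech, which inserts iron into heme and is abundant in erythroid cells, was at -1.41 (SE 0.54), 1.93 (SE 0.79) and -1.20 (SE 0.78) on day 28 of the single schedule and days 1 and 28 of the repeated one. Of the glutathione list, Gstm1 was at -0.23 (SE 0.14) on day 1 after the single exposure and Gsta4 at -0.22 (SE 0.10) on day 1 after repeated exposure. Of the NADPH list, Me1 was at -0.28 (SE 0.16) on day 28 after repeated exposure. None of these values passed the edgeR test on the 24 libraries of a schedule. The edgeR fit on the 12 libraries of a comparison alone called Nfe2 on day 28 of the single schedule (-1.10, adjusted p = 0.0431). On day 28 of the repeated schedule it called Nfe2 (-0.94, adjusted p = 0.0138), Tfrc, the transferrin receptor (-0.37, adjusted p = 0.0248) and Fech (-1.22, adjusted p = 0.0201), all lower in oil vapor. That fit called 16 and 137 genes in all in the 2 comparisons, against 0 with 24 libraries.

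Some pathway genes changed with time in the single schedule. In air, 3 of 46 tested rose from day 1 to day 28: Txnip at 0.31 (SE 0.06, adjusted p = 0.00189), Nfe2l1 at 0.21 (SE 0.05, adjusted p = 0.0221) and Maff, a small MAF partner of NRF2, at 0.51 (SE 0.14, adjusted p = 0.0449, edgeR). The call of Maff was lost in 10 of 12 fits that left out 1 animal. The call of Nfe2l1 was lost in 3 of 12. Of all genes 1.01% rose in that comparison. In oil vapor 3 of 46 rose and 3 fell, where 4.45% of all genes rose and 4.98% fell. Txnip rose by 0.64 (SE 0.06, adjusted p = 3.8e-07), the smallest of all genes in that comparison, with Maff at 0.45 (SE 0.14) and Prdx6 at 0.24 (SE 0.07). Txn1, the thioredoxin that Txnrd1 reduces, had -0.30 (SE 0.06), the peroxiredoxin Prdx1 -0.26 (SE 0.07) and the pentose phosphate enzyme Taldo1 -0.32 (SE 0.08). The calls of Maff, Prdx1 and Prdx6 were lost in 7, 5 and 4 of 12 fits that left out 1 animal. Without animal 5, Maff (adjusted p = 0.0520) and Prdx6 (adjusted p = 0.0541) did not pass, and with the other-tissue scores Txnip alone of the 6 did.

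Txnip had 795 CPM (736 to 927) in air and 702 CPM (605 to 758) in oil vapor on day 1 of the single schedule, and 985 CPM (952 to 1054) and 1077 CPM (1031 to 1195) on day 28. All animals of day 28 lay above all of day 1 in both treatments. The share of all genes that separate between the days was not computed. In the repeated schedule its medians were 1138 CPM (933 to 1255) in air and 1038 CPM (766 to 1317) in oil vapor on day 1, and 1129 CPM (926 to 1269.7) and 1177 CPM (1070.2 to 1255) on day 28, with overlapping groups. In that schedule 0 of the pathway genes passed between the days, where 0.327% of all genes passed in air and 0.34% in oil vapor. Air animals of the repeated schedule exceeded those of the single one on day 1 in Txnip (0.44, SE 0.07, adjusted p = 2.0e-04) and Prdx6 (0.30, SE 0.08, adjusted p = 0.0196, edgeR). Of 15322 genes tested, 1.15% were higher in that contrast. The count of pathway genes that passed there was 2, and 1 to 5 over the alternatives. The call of Prdx6 was lost in 3 of 12 fits that left out 1 animal. Txnip was lowest in the lungs taken 1 day after the single exposure, in air as in oil vapor. Day after exposure and age or date of exposure cannot be told apart in these contrasts. In the contrast of the air groups, schedule and count table cannot be told apart either.

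The genes whose levels were most like each member's were read over 48 group-centred libraries among 12539 or 12540 genes with a mean of at least 5 CPM. Gclm was most like March2 (r = 0.984, rho = 0.943) and Bnip3l (r = 0.983, rho = 0.946), and Fth1 most like Cat (r = 0.978, rho = 0.902) and Dnajb2 (r = 0.971, rho = 0.879). Bnip3l encodes a receptor for the removal of mitochondria, a step of red cell maturation, and Cat encodes catalase. Without animals 5 and 43 these 4 r were 0.955, 0.952, 0.924 and 0.908. The other members had weaker neighbours: Nqo1 had Crb3 (r = 0.721, rho = 0.6996) and Wdr6 (r = 0.6897, rho = 0.583), Hmox1 LOC680835 (r = 0.7696, rho = 0.597) and Creld1 (r = 0.753, rho = 0.531), and Gclc Ufl1 (r = 0.6097, rho = 0.585) and Xrn1 (r = 0.609, rho = 0.561). Txnrd1 had Tmed2 (r = 0.697, rho = 0.571) and Pls1 (r = 0.682, rho = 0.491), Srxn1 Ctcf (r = 0.648, rho = 0.5503) and Amn1 (r = 0.6247, rho = 0.519), Slc7a11 Intu (r = 0.622, rho = 0.481) and Bmp2k (r = 0.622, rho = 0.493), and Nfe2l2 Atp5c1 (r = 0.687, rho = 0.633) and Eif3m (r = 0.682, rho = 0.632). No member was among the 2 genes most like another member.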

How the data were processed

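Total RNA from rat lung was sequenced after rRNA depletion with a stranded kit and 12 PCR cycles, per the labels' protocols. The deposited tables hold the authors' raw counts per gene, 1 table per schedule. The submitters' processing notes name bcl2fastq 2.19, Trimmomatic 0.35, HISAT2 2.1.0, SAMtools 1.8, HTSeq 0.6.1 and Rnor_6.0. The annotation and strand setting are not given in the sources used here. Overlapping and antisense genes, and near-identical copies such as those of Fth1, are therefore uncertain. The library of animal 32 is described under the other schedule's table, and its title and column were followed.

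Columns were matched to samples by title. CPM was computed from the counts over each library's total. The main test was edgeR 4.0.16 (R 4.3.3) with TMM factors, filterByExpr and the quasi-likelihood fit, two-sided, at an adjusted p of 0.05. The 24 libraries of a schedule entered together, and all 48 for contrasts between schedules. Alternatives were DESeq2 1.42.0, limma 3.58.1 (voom with sample weights), RLE factors, no filter, only the libraries compared, other-tissue scores as covariates and each animal left out. The fit without animals 5 and 43 was chosen after seeing the data. Only the edgeR fit within a schedule was tested on simulated data, for oil vapor against air on day 1. The simulated data held no outlying libraries such as those of animals 5 and 43. Correlations used Python 3.11.15 with 100000 permutations.

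All 9 members are named, with pathway genes that passed or had the smallest p of their list, and the 2 genes most like each member. The members and lists were chosen with earlier results of these data known. P-values of the group comparisons set a difference against the spread between these animals, and a count limit covers counting error only. Those across schedules take the libraries as independent, which they may not be.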

Additional observations from a re-analysis of the deposited data

Results flagged for a closer look

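Of 72 groups of 6 libraries (9 members in 8 groups), 12 held a library whose gap to the nearest of the others was, as a share of the group's range, above Dixon's critical value for 6 samples. Chance flags about 1 in 20 groups, or 3.6 of 72. Animals 5 and 43 account for 7 of the 12.

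Animal 5 (oil vapor, day 1 after the single exposure) was the highest of its group in Gclm (128.6 CPM, nearest 37.2), Fth1 (1980.3 CPM, nearest 840.1) and Slc7a11 (5.48 CPM, nearest 3.22). It was the lowest in Nqo1 (29.3 CPM, nearest 35.9) and Txnrd1 (84.3 CPM, nearest 97.1). Animal 43 (oil vapor, day 1 after repeated exposure) was the highest in Gclm (353.9 CPM, nearest 38.5) and Fth1 (5591 CPM, nearest 985). Both also had the highest erythroid marker sums, at 14058 and 43018 CPM.

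In the oil vapor group on day 28 after repeated exposure, animal 92 had 37.2 CPM of Gclm, with the nearest at 27.6. In air on day 28 of the single schedule, animal 20 had 110.7 CPM of Txnrd1 (nearest 95.2) and animal 23 had 1695 CPM of Fth1 (nearest 1195). In air on day 1 of the single schedule, animal 9 had 1177 CPM of Fth1 (nearest 922). In air on day 1 of the repeated schedule, animal 39 had 8.07 CPM of Srxn1 (nearest 4.498).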

How the results depend on the processing

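No paired analysis was possible because each animal number occurs once and no label ties animals of different groups. The rank pairs across schedules were chosen from the data and were not used as a block. The 52 member values kept their direction and side of the threshold in 940 of 1020 alternatives. In 79 the direction turned, with adjusted p above the threshold, and in 1, the fit on 12 libraries of Gclm on day 28 after repeated exposure, a value came past it. All log2 fold changes are of oil vapor against air unless named, and the cause was not tested. With other-tissue scores as covariates, the sign turned for Slc7a11 0.00159 (single day 1), 0.19 (single day 28). In that fit Fth1 was at -0.0663 (single day 1), 0.13 (single day 28), 0.36 (day 28 against day 1 in oil vapor, single), 0.19 (the day 28 minus day 1 effect, single), 0.77 (repeated day 28), 0.50 (day 28 against day 1 in oil vapor, repeated), 0.40 (the day 28 minus day 1 effect, repeated). In that fit Nqo1 was at -0.13 (single day 28), 0.06304 (repeated day 28). In that fit Gclm was at 0.44 (single day 28), -0.0654 (day 28 against day 1 in air, single), 0.34 (day 28 against day 1 in oil vapor, single), 0.41 (the day 28 minus day 1 effect, single), -0.0152 (repeated day 1), 0.60 (repeated day 28), -0.37 (day 28 against day 1 in air, repeated), 0.24 (day 28 against day 1 in oil vapor, repeated), 0.61 (the day 28 minus day 1 effect, repeated). In that fit Srxn1 was at 0.0859 (single day 28), 0.0897 (repeated day 1), 0.0463 (repeated day 28). In that fit Gclc was at -0.0313 (repeated day 1). With limma-voom and sample weights, the sign turned for Gclm -0.13 (single day 1), -0.21 (repeated day 1), -0.0714 (the schedule difference of the effect on day 1). In that fit Fth1 was at -0.13 (single day 1), 0.12 (day 28 against day 1 in oil vapor, repeated). In that fit Slc7a11 was at 0.0992 (single day 28). With RLE size factors, the sign turned for Hmox1 -0.00605 (repeated day 28) and for Txnrd1 -0.00127 (repeated day 28). With no filter on low counts, the sign turned for Hmox1 -0.00217 (repeated day 28). With DESeq2, the sign turned for Hmox1 -0.00796 (repeated day 28) and for Txnrd1 -0.00246 (repeated day 28). With only the libraries compared, the sign turned for Hmox1 -0.00845 (repeated day 28) and for Txnrd1 -0.00746 (repeated day 28). Leaving out 1 animal at a time also turned signs. Gclm ranged over -0.35 to 0.38 (single day 1), -0.0172 to 0.28 (day 28 against day 1 in air, single), -0.31 to 1.40 (repeated day 1), -0.56 to 1.48 (the schedule difference of the effect on day 1). Slc7a11 ranged over -0.34 to 7.7e-04 (single day 1), -0.21 to 0.0821 (single day 28), -0.31 to 0.0517 (repeated day 1), -0.0285 to 0.13 (repeated day 28). Fth1 ranged over -0.28 to 0.16 (single day 1), -0.39 to 0.0427 (day 28 against day 1 in oil vapor, single), -1.22 to 0.16 (day 28 against day 1 in oil vapor, repeated), -0.06796 to 1.51 (the schedule difference of the effect on day 1). Nfe2l2 ranged over -0.0394 to 0.0141 (single day 1). Nqo1 ranged over -0.0255 to 0.12 (single day 28), -0.0785 to 0.0188 (repeated day 28). Txnrd1 ranged over -0.0484 to 0.0259 (single day 28), -0.0205 to 0.0293 (repeated day 28). Srxn1 ranged over -0.19 to 0.18 (repeated day 1). Hmox1 ranged over -0.10 to 0.0875 (repeated day 28). The count of members past the threshold was 0, as in the main fits, in all but 3 of 302 alternatives. It was 1 against 0 for repeated day 28 with only the libraries compared, and 2 against 0 for any difference among the 8 groups both with other-tissue scores and without animals 5 and 43. In those 3 fits 137, 2769 and 3201 genes passed in all. Of 11 other pathway values, 155 of 196 alternatives kept the call and 41 lost it, and 0 reversed. Counts over all genes moved more, and are given as the edgeR count with the range over alternatives: 0 (0 to 17) for single day 1, 0 (0 to 24) for single day 28, 1 (0 to 93) for repeated day 1, 0 (0 to 137) for repeated day 28, 481 (315 to 579) for day 28 against day 1 in air, single, 1398 (426 to 1628) for day 28 against day 1 in oil vapor, single, 49 (2 to 244) for day 28 against day 1 in air, repeated. They were 51 (0 to 311) for day 28 against day 1 in oil vapor, repeated, 0 (0 to 21) for the day 28 minus day 1 effect, single, 1 (0 to 47) for the day 28 minus day 1 effect, repeated, 7 (0 to 43) for the schedule difference of the effect on day 1, 0 (0 to 2) for the schedule difference of the effect on day 28, 576 (320 to 1341) for schedules in air, day 1, 7 (1 to 47) for schedules in air, day 28, 2090 (1782 to 3201) for any difference among the 8 groups. DESeq2 gave no adjusted p for Gclm and Fth1 in the test for any difference. Depth limits Slc7a11 and Srxn1 most, with 5 to 48 counts per library, and counting error and spread between animals were not separated.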
